A study of Mus musculus with 18 samples.

Results

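The Cyp4a genes encode the fatty acid omega-hydroxylases of the mouse liver. Members were taken as every probe whose transcript maps to Cyp4a10, Cyp4a12a, Cyp4a12b, Cyp4a14, Cyp4a31 or Cyp4a32, which gave 10 of the 39429 probes on the array and 6 of the 19597 named genes that could be tested. Cyp4a10 and Cyp4a31 had 3 probes each and the others 1 each. All 10 probes lay well above background on all 18 arrays, and a gene was read on its brightest probe.

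Liver RNA of 18 male C57BL/6 mice was hybridised, 1 mouse to a one-colour Agilent array. From 6 weeks of age the mice ate a low fat diet (LFD, 10% fat) or a high fat diet (HFD, 60% fat). After 10 weeks on the diet, the MTX50 mice of each diet were given methotrexate, an antifolate, by intraperitoneal injection at 50 mg/kg for 5 rounds, and livers were taken a week after the last. On LFD there were 4 untreated and 5 MTX50 mice, on HFD likewise 4 and 5, and the comparisons asked what the diet did, what methotrexate did on each diet, and whether its effect differed between diets. The mice without methotrexate are labelled as having had no treatment, and no vehicle injection is named for them. By the methods each mouse was kept in its own cage from before treatment. Nothing in the labels says which mice shared an earlier cage or a cohort, so p-values measure the spread between these mice.

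Cyp4a enzymes are cytochromes P450 of the endoplasmic reticulum that put a hydroxyl group on the last carbon of a fatty acid, with electrons handed on by cytochrome P450 reductase. Alcohol and aldehyde dehydrogenases then turn the product into a dicarboxylic acid, which peroxisomes shorten. In mouse liver Cyp4a10 and Cyp4a14 are textbook targets of the fatty acid receptor PPAR-alpha, whereas Cyp4a12a, which also makes 20-HETE from arachidonic acid, is a male-biased gene under androgen and growth hormone control.

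The genes sit side by side on chromosome 4. In RefSeq's order on GRCm38.p6 they run Cyp4a12a, Cyp4a12b, Cyp4a14, Cyp4a10, Cyp4a31 and Cyp4a32 over a stretch of 14 annotated loci, with the related Cyp4a30b between Cyp4a12b and Cyp4a14 and pseudogenes among them. The array was laid out on mm9, so no probe is placed on this assembly. Near-identical neighbours may share signal on a probe, so the members of a pair cannot be counted as separate observations.

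A level below is the log2 of the processed signal minus the 75th percentile of the signals on the same array, so that 0 is the signal at that percentile and a step of 1 is 2-fold. A level was compared between mice on the same probe, not between probes. The share of probes well above background ran from 83.8 to 90.6% over the arrays, and the 7 hepatocyte markers (Alb, Apoa1 and others) were all above background. The LFD mice lay on 1 slide and shared it with no other group, so for LFD the slide cannot be told apart from the group. The LFD MTX50 mice lay on other slides, also shared with no other group. In LFD MTX50 vs LFD, and so in the difference between the diets, slide and treatment therefore cannot be told apart. One slide of the 6 held 2 HFD and 2 HFD MTX50 mice.

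Cyp4a12a and Cyp4a12b were lower on the high fat diet than on the low fat diet, and lower after methotrexate than without it on either diet. The fall with methotrexate was largest in LFD mice, 17.5-fold and 12.6-fold. The fall was smaller in HFD mice, and the difference between the diets passed its own test for both genes. Cyp4a10, Cyp4a14, Cyp4a31 and Cyp4a32 passed the test in none of the 4 comparisons.

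Cyp4a12a had levels of 3.17, 3.12, 3.56 and 3.06 in the 4 LFD mice. In the 5 LFD MTX50 mice they were −0.73, −1.10, −0.39, −0.54 and −1.77. All treated lean mice therefore lay below the 75th percentile of their arrays, and no treated lean mouse came near an untreated lean one. The 4 HFD mice had 1.55, 1.95, 2.05 and 2.58, and the 5 HFD MTX50 mice had −0.50, 1.31, 0.51, 1.18 and −1.03. Every HFD mouse was below every LFD mouse and every HFD MTX50 mouse was below every HFD mouse, while the treated mice of the 2 diets overlapped.

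Cyp4a12b, its close paralog, ran the same course. Its levels in LFD mice were 3.26, 3.13, 3.36 and 3.08, and in LFD MTX50 mice −0.33, −0.56, −0.17, −0.07 and −1.10. HFD mice had 1.54, 2.00, 1.94 and 2.42, and HFD MTX50 mice −0.17, 1.35, 0.59, 1.38 and −0.27. The 3 pairs of groups again did not overlap, and LFD MTX50 mouse 5 was the lowest mouse on both probes.

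**Figure D1:**
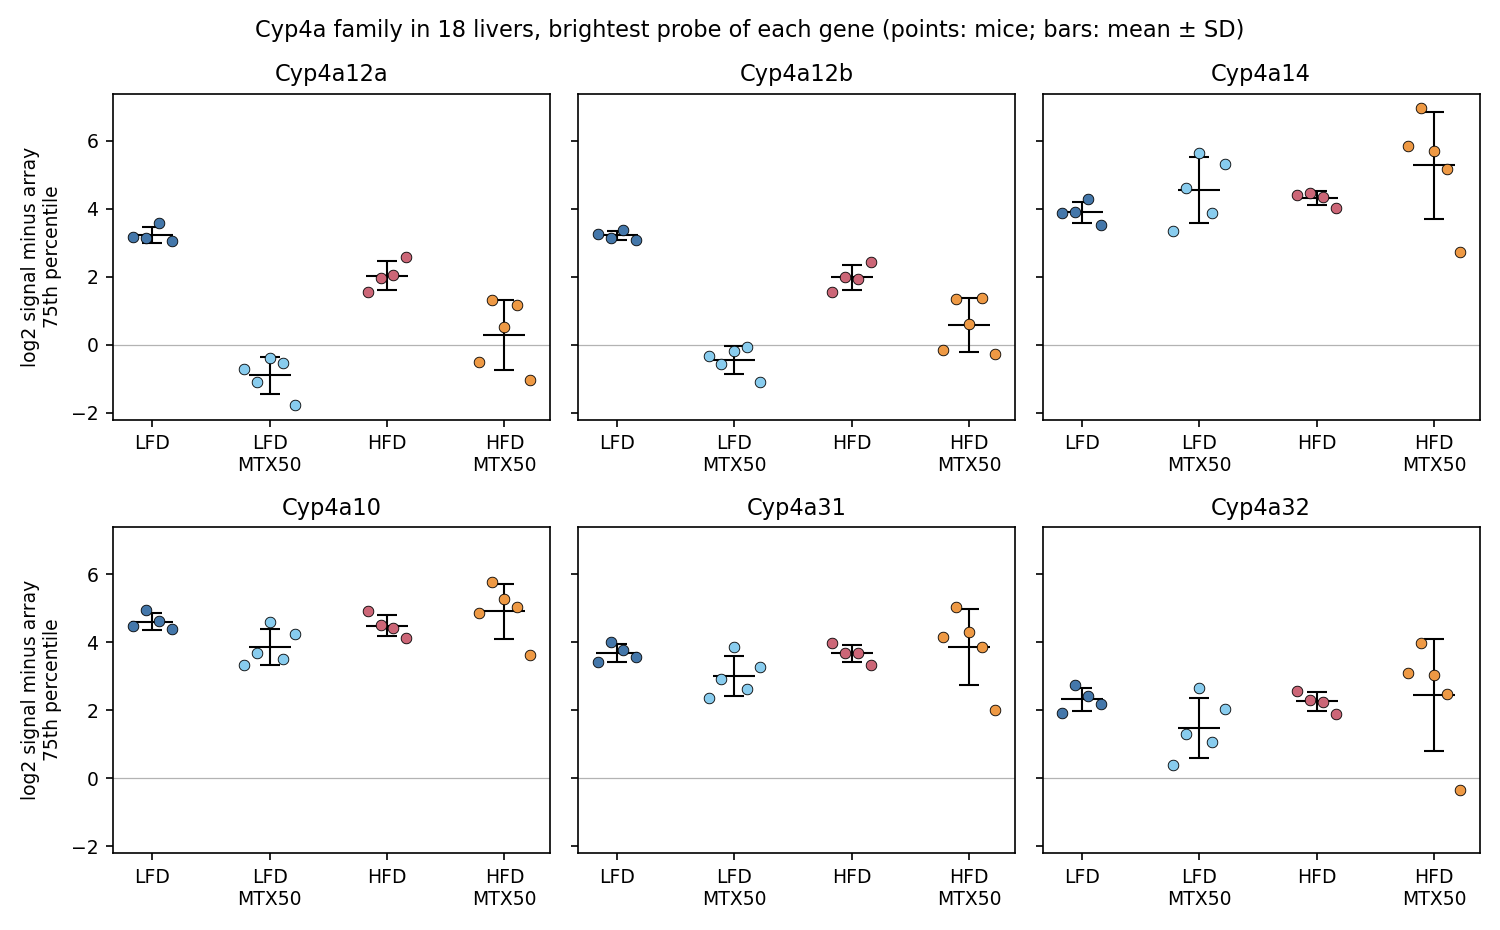
Levels of the 6 Cyp4a genes (log2 processed signal minus the array's 75th percentile, brightest probe) in each of the 18 mice, by group, with bars for the mean ± SD. Cyp4a12a and Cyp4a12b step down from LFD to HFD to the treated groups, while the other 4 genes overlap between groups and spread most in treated mice.

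In the HFD vs LFD comparison, 2 of the 6 members passed the test, both lower. Of all 19597 genes tested, 3522 were called higher and 2033, or 10.4%, lower. Cyp4a12a fell by 1.20 on the log2 scale (SE 0.43, 2.30-fold, adjusted p = 0.0479, limma) and Cyp4a12b fell by 1.24 (SE 0.33, 2.35-fold, adjusted p = 0.015, limma). The call of Cyp4a12a was at the threshold: it was lost when any 1 of 12 arrays was left out, with an adjusted p of up to 0.105 (without LFD mouse 3). Neither gene was called when the slide entered as a random term (adjusted p = 0.198 for Cyp4a12a and 0.108 for Cyp4a12b) or with normexp background correction (0.171 and 0.121), and Cyp4a12a was not called with quantile normalization (0.0879) or with dim probes kept (0.0553). Groups that do not overlap, lower in HFD, were found for these 2 members and for 16.2% of all genes.

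In the LFD MTX50 vs LFD comparison, 2 of the 6 members passed, both lower. Over all genes 3450 were called higher and 2053, or 10.5%, lower, and 11.5% were lower without overlap. Cyp4a12a fell by 4.13 (SE 0.41, adjusted p = 6.62e-05, limma) and Cyp4a12b fell by 3.66 (SE 0.32, adjusted p = 3.29e-05, limma). These 2 calls held in each of the 14 other settings and with each of the 18 arrays left out. The adjusted p was at most 0.00707 for Cyp4a12a, with the slide as a random block. These groups share no slide, so this setting cannot separate slide from treatment.

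In the HFD MTX50 vs HFD comparison, 2 of the 6 members passed, both lower. Over all genes 946 were called higher and 1202, or 6.13%, lower, and 6.21% were lower without overlap. Cyp4a12a fell by 1.74 (SE 0.41, 3.33-fold, adjusted p = 0.0191, limma) and Cyp4a12b fell by 1.40 (SE 0.32, 2.63-fold, adjusted p = 0.0166, limma). Within the slide that held both groups, 2 mice against 2, the falls were as large, −1.91 and −1.59, with adjusted p = 0.0704 and 0.0562. Without HFD mouse 3 or 4 both calls were lost, with adjusted p between 0.0601 and 0.0772, and the differences stayed between −1.73 and −1.25. Both calls also ended with normexp (adjusted p = 0.382 for each), in a model of these 2 groups alone (0.0883 and 0.0869), in the methods' t-test and when the slide entered as a fixed term (0.213 and 0.195).

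The fall with methotrexate differed between the diets by 2.40 for Cyp4a12a (SE 0.58, adjusted p = 0.0103, limma) and by 2.26 for Cyp4a12b (SE 0.45, adjusted p = 0.00586, limma), smaller on HFD. These were 2 of the 6 members, against 8.66% of all genes called in that direction. With normexp neither was called (adjusted p = 0.524 for each), and a random term for the slide ended the call of Cyp4a12a (0.0543). Without HFD MTX50 mouse 5 the difference passed for 5 of the 6 members, against 7.36% of all genes called in that direction without that mouse. HFD mice started 1.20 and 1.24 below the lean mice. The treated groups lay at −0.91 ± 0.55 (SD, n = 5) and 0.29 ± 1.03 (SD, n = 5) for Cyp4a12a and at −0.45 ± 0.41 and 0.58 ± 0.79 (SD, n = 5 each) for Cyp4a12b.

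**Figure D2:**
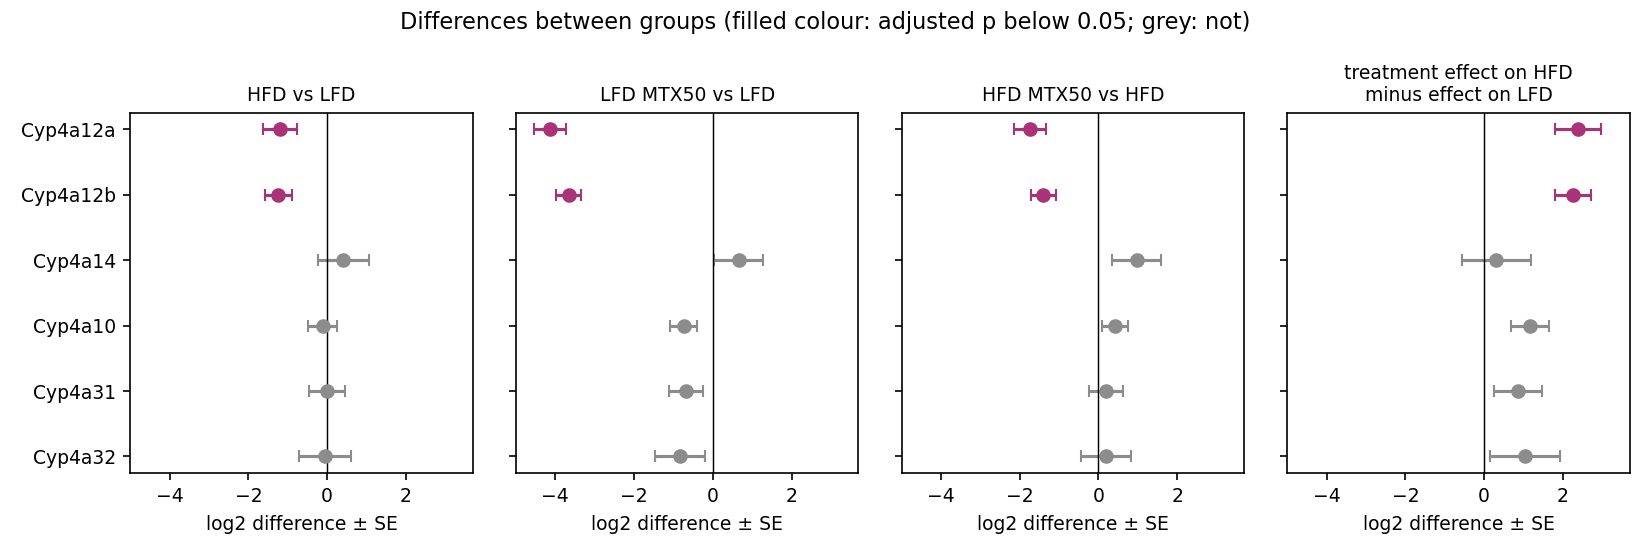
Log2 differences with their standard errors for the 6 genes in the 4 comparisons, from the limma model. The coloured points, Cyp4a12a and Cyp4a12b in each panel, passed an adjusted p of 0.05 and the grey points did not.

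Cyp4a14, a lauric acid hydroxylase and one of the most inducible PPAR-alpha targets, varied mainly between treated mice. Its levels were 3.86, 3.91, 4.28 and 3.52 in LFD mice and 4.40, 4.46, 4.35 and 4.01 in HFD mice. In LFD MTX50 mice they were 3.34, 4.61, 5.64, 3.86 and 5.30. HFD MTX50 mice had 5.85, 6.95, 5.70, 5.16 and 2.72, so that 4 of the 5 lay above every HFD mouse and mouse 5 lay below every other mouse of the study.

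The mean of Cyp4a14 differed by 0.41 (SE 0.65, adjusted p = 0.647) between HFD and LFD, by 0.66 (SE 0.62, adjusted p = 0.427) between LFD MTX50 and LFD and by 0.97 (SE 0.62, adjusted p = 0.289) between HFD MTX50 and HFD, all from limma. With 1 array left out the second of these ran from 0.39 (without LFD MTX50 mouse 3) to 0.96 (without LFD MTX50 mouse 1). The third was lowered by HFD MTX50 mouse 5 and raised by mouse 2. Without mouse 5 the difference was 1.61 (SE 0.43) and passed, at adjusted p = 0.0434, and without HFD MTX50 mouse 2 it was 0.55. Within the shared slide, which does not hold mouse 5, it was 2.22 (SE 0.82, adjusted p = 0.111). The treatment effects on the 2 diets differed by 0.31 (SE 0.87, adjusted p = 0.809).

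Cyp4a10, the other classical PPAR-alpha target among the hydroxylases, had levels of 4.46, 4.95, 4.61 and 4.39 in LFD mice and 3.32, 3.68, 4.58, 3.49 and 4.24 in LFD MTX50 mice. Here 4 of the 5 treated mice lay below every LFD mouse, but the difference of −0.74 (SE 0.34) did not pass, at adjusted p = 0.108. Without HFD MTX50 mouse 5, which enters this comparison only through the shared variance, the same difference had an adjusted p of 0.0363. HFD mice had 4.90, 4.50, 4.41 and 4.13, and HFD MTX50 mice had 4.85, 5.78, 5.26, 5.03 and 3.61. The difference of 0.42 (SE 0.34) between these had an adjusted p of 0.407, and it was 0.20 without HFD MTX50 mouse 2 and 0.75 without mouse 5, with 0.17 to 1.05 over the other settings. The treatment effects on the 2 diets differed by 1.16 (SE 0.48, adjusted p = 0.0791), and by 1.48 with adjusted p = 0.0142 without HFD MTX50 mouse 5.

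The other 2 probes of Cyp4a10 spread more than the brightest in treated mice and less in HFD mice. In HFD MTX50 mice the brightest probe spanned 2.17 log2 units, and the others 4.66 and 3.602, while in HFD mice it spanned 0.773 and the others 0.528 and 0.399. From LFD to LFD MTX50 the 3 probes differed by −0.65 to −0.77 (adjusted p from 0.108 to 0.398), and from HFD to HFD MTX50 by −0.06 to 0.42, with both signs.

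Cyp4a31 and Cyp4a32 lie at the end of the row beyond Cyp4a10. Cyp4a31 ranged from 3.41 to 3.99 in LFD mice, from 2.36 to 3.86 in LFD MTX50 mice, from 3.34 to 3.96 in HFD mice and from 2.01 to 5.02 in HFD MTX50 mice. Cyp4a32 ranged from 1.92 to 2.73, from 0.37 to 2.65, from 1.89 to 2.57 and from −0.34 to 3.98 in the same order. For both genes HFD MTX50 mouse 5 was the lowest and mouse 2 the highest of the 18, and all pairs of groups overlapped.

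Their mean differences were −0.67 (Cyp4a31) and −0.83 (Cyp4a32) for LFD MTX50 vs LFD, with adjusted p = 0.244 and 0.319, and 0.20 for both for HFD MTX50 vs HFD, with adjusted p = 0.781 and 0.855. Without LFD MTX50 mouse 1 the first differences were −0.51 and −0.56. The 3 probes of Cyp4a31 differed by −0.45 to −0.98 in the first comparison and by −0.22 to 0.20 in the second. Between HFD and LFD, Cyp4a10, Cyp4a31 and Cyp4a32 differed by −0.12, −0.01 and −0.06, and under quantile normalization by 0.17, 0.19 and 0.06. Without HFD MTX50 mouse 5 the treatment effects of Cyp4a31 and Cyp4a32 on the 2 diets differed by 1.33 and 1.73, with adjusted p = 0.0274 and 0.0343, where all 18 arrays gave 0.87 and 1.03, with adjusted p = 0.292 and 0.395.

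Cyp4a32 is the only member with an entry in the RefSeq promoter table. Its bases up to the annotated gene start, on GRCm38.p6 chr4:115600688-115600926, plus strand, are shown because it moved from mouse to mouse together with Cyp4a10, Cyp4a14 and Cyp4a31:
Cyp4a32: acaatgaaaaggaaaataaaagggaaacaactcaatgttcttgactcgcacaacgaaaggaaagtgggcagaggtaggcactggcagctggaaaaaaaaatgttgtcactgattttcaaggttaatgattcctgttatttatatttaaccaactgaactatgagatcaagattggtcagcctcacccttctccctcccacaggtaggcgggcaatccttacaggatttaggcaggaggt
These 239 bases were searched on both strands for the nuclear receptor half-site AGGTCA, for the direct repeat of this half-site with 1 base between the copies, which contains it, and for the STAT motif TTCNNNGAA. None of these letters was found, so no base is in capitals. Over windows of the same length at 32851 promoters, 13.5%, 0.0304% and 6.74% held a match.

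The members varied from mouse to mouse in groups. Over the 18 mice, which share slides and groups, Cyp4a12a and Cyp4a12b correlated at Pearson r = 0.996, and at 0.98 in deviations from the group means. Cyp4a31 and Cyp4a32 correlated at 0.99 and 0.993, and Cyp4a10 and Cyp4a31 at 0.958 and 0.97. Cyp4a14 correlated with Cyp4a32 at 0.802 across all mice but at 0.971 in deviations from the group means. Between Cyp4a12a and Cyp4a14 the values were −0.176 and 0.434.

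**Figure D3:**
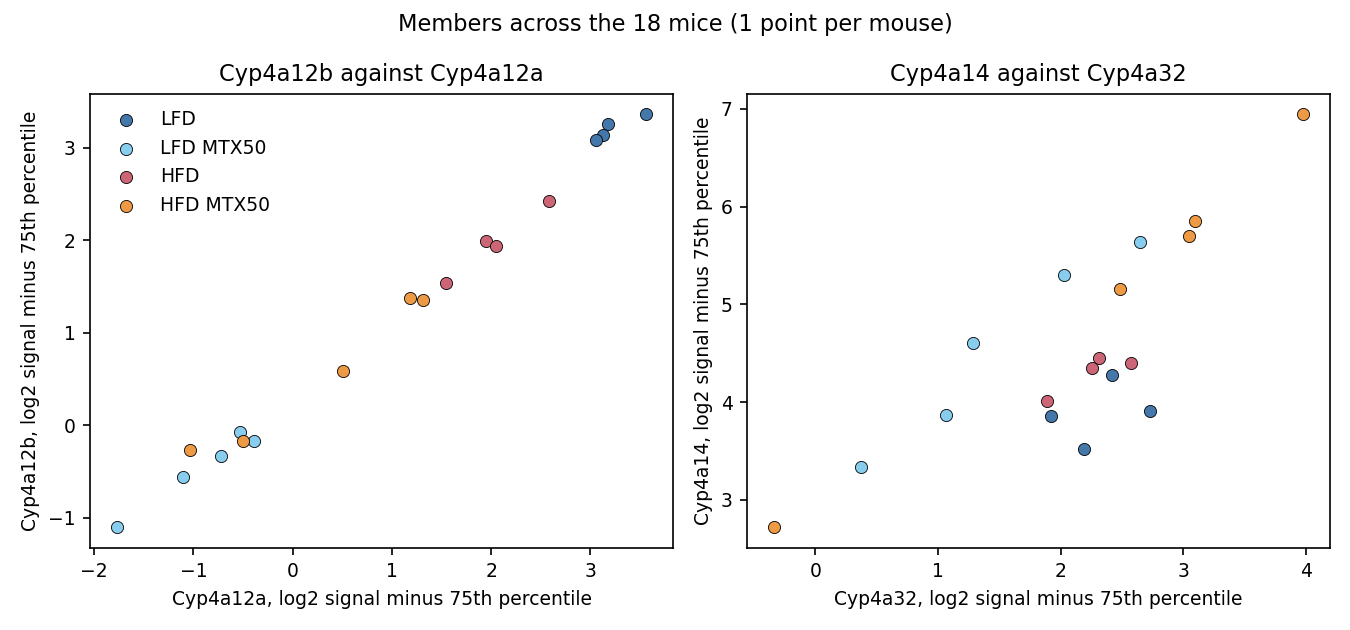
Levels of Cyp4a12b against Cyp4a12a (left) and of Cyp4a14 against Cyp4a32 (right), log2 processed signal minus the array's 75th percentile, 1 point per mouse, coloured by group. On the left all 18 mice follow 1 line. On the right the treated mice lie higher in Cyp4a14 than untreated mice of a like Cyp4a32 level.

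This displacement was followed as the difference of 2 log2 signals on the same array, in which any scaling of the array cancels. Its size depends on the probes, so only its change between groups was read. The tests were chosen after the data had been seen, 9 in all. Cyp4a14 minus Cyp4a32 was 1.18 to 1.94 in LFD mice, against 2.80 to 3.32 in LFD MTX50 mice. In HFD mice it was 1.83 to 2.14, against 2.66 to 3.06 in HFD MTX50 mice, so that every treated mouse of both diets lay above every untreated one.

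The shift of Cyp4a14 against Cyp4a32 was 1.49 on LFD and 0.77 on HFD, each with p = 0.0159 in a two-sided exact permutation test over mice, the smallest value that 5 mice against 4 allow, and 0.0357 after Benjamini-Hochberg adjustment over the 9 tests. On LFD the shift was 1.40 against Cyp4a10 and 1.33 against Cyp4a31, with the same exact p and no overlap. On HFD it was 0.55 against Cyp4a10 (exact p = 0.238) and 0.77 against Cyp4a31 (exact p = 0.0317, adjusted 0.0571). Without HFD MTX50 mouse 5 these were 0.86 and 0.95, both with an adjusted p of 0.0429 in the exact permutation test, and without mouse 2 they were 0.35 and 0.64. With the mean of all probes they were 0.80 and 0.92 and passed (adjusted p = 0.0238, exact permutation test), and the value table gave 0.88 against Cyp4a31, which also passed (0.0286). HFD vs LFD gave 0.43 to 0.53, with adjusted p of 0.0857 to 0.0964 by the exact permutation test.

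On LFD the shift against Cyp4a10, Cyp4a31 and Cyp4a32 lay between 1.21 and 1.61 with any mouse left out, and against Cyp4a32 on HFD between 0.70 and 0.82. The smallest exact permutation p that Cyp4a14 differences allow is then 0.0286 or 0.0357. The adjusted p was 0.0571 to 0.0643 on LFD, and on HFD 0.0429 to 0.0804 with the call lost in 8 of 9 cases, which with so few mice says nothing about stability. A change in such a difference shows that 2 probes moved unequally, and probes may differ in how steeply they follow their transcript. The 3 probes of Cyp4a10 also spread unequally, and the reason was not tested.

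**Figure D4:**
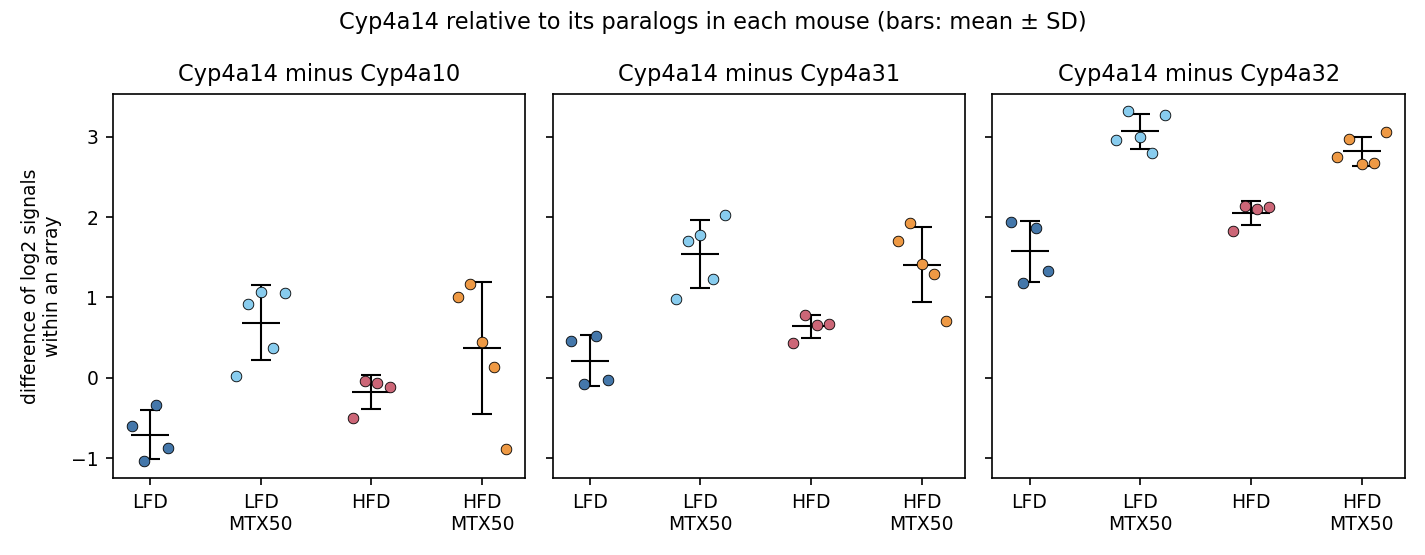
Difference between the log2 signals of Cyp4a14 and of Cyp4a10, Cyp4a31 or Cyp4a32 on the same array, for each mouse, with bars for the mean ± SD. Against Cyp4a32 the treated mice of both diets (2.66 to 3.32) lie above all untreated mice (1.18 to 2.14).

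Outside the family, the 5 genes most like Cyp4a12a over the 18 arrays, among 17520 genes above background on all of them, were Orai1, a calcium channel (r = 0.917), Afg1l (0.907), Nat8f5 (0.898), Gm4956 (0.898) and Cyp4v3, another fatty acid hydroxylase (0.885). In deviations from the group means the r of these genes was 0.609, 0.674, 0.14, 0.583 and 0.571. For Cyp4a14 they were Amigo2, a cell adhesion protein (0.906), Pcp4l1 (0.879), Flvcr2 (0.859), Qpct (0.838) and Tmem43 (0.837), with 0.845 to 0.9 in deviations from the group means. Without the 2 arrays farthest from the median of Cyp4a14, its r was 0.856, 0.81, 0.849, 0.715 and 0.682 in the same order. Left out likewise for Cyp4a12a, the 2 farthest arrays gave 0.85 to 0.903. These values describe likeness over these arrays and carry no test.

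The genes around the hydroxylases were read in lists, each by its counts. Of all 19597 genes, 3522 rose and 2033 fell in HFD vs LFD, and 3450 rose and 2053 fell in LFD MTX50 vs LFD. In HFD MTX50 vs HFD 946 rose and 1202 fell. Of 14 other Cyp4 genes, 1 rose and 1 fell with the high fat diet, 1 rose and 2 fell in LFD MTX50 vs LFD and none passed in HFD MTX50 vs HFD. Cyp4a30b, which lies between the Cyp4a12 genes and Cyp4a14, differed by −0.63 (SE 0.52, adjusted p = 0.359, limma) in LFD MTX50 vs LFD. Cyp4f18, a leukotriene hydroxylase of leukocytes, fell by 1.17 there and Cyp4x1 rose by 1.36. Of the 4 genes listed as electron partners, 1 rose and 2 fell in LFD MTX50 vs LFD, and 1 fell in each of the other 2 comparisons. Por, the reductase that serves all microsomal P450s, rose by 1.18 in LFD MTX50 vs LFD and Cyb5b fell by 1.15. Cyb5a differed by −0.08 there and did not pass (adjusted p = 0.649, limma). Cyb5r3, the cytochrome b5 reductase, fell in all 3, by 0.56 (HFD vs LFD), 0.93 (LFD MTX50 vs LFD) and 0.64 (HFD MTX50 vs HFD). The call of Por was lost in 5 of 14 other settings and in 6 of 18 fits with 1 array left out, and those of Cyb5r3 on HFD in 6 of 14 and 7 of 16 settings.

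Of the 12 genes for the steps after the hydroxylase, 4 fell and none rose in LFD MTX50 vs LFD, among them Aldh1a1 (−1.40) and Acsl5 (−1.06). In HFD vs LFD 1 rose and 2 fell, and in HFD MTX50 vs HFD 1 rose and 1 fell, the HFD mice serving both comparisons. Aldh3a2, the fatty aldehyde dehydrogenase, rose by 0.56 in the first and fell by 0.55 in the second. Adh7, an alcohol dehydrogenase, fell by 0.49 and rose by 0.64, and Acsl4, an acyl-CoA synthetase, fell by 0.64 with the diet. Of 25 peroxisomal beta-oxidation genes, 3 rose with the high fat diet, where 3522 of all 19597 genes rose. In LFD MTX50 vs LFD 3 rose and 8 fell, where 10.5% of all genes fell, and 3 fell in HFD MTX50 vs HFD. Nudt7 fell by 2.88 in LFD MTX50 vs LFD, and the thiolase Acaa1b fell by 2.28 there and by 1.68 in HFD MTX50 vs HFD.

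Ppara itself had mean levels of 3.83 (LFD) and 3.55 (LFD MTX50) in lean mice and of 3.87 (HFD) and 3.94 (HFD MTX50) in HFD-fed mice, and passed no test in the model of 4 groups. In LFD MTX50 vs LFD its difference of −0.28 had an adjusted p of 0.151 there (limma), and passed at 0.0477 in a model of these 2 groups alone and at 0.0419 in the methods' t-test after adjustment. Of the 16 genes of PPAR-alpha and its partners, 2 rose and 5 fell in HFD vs LFD, 1 rose and 7 fell in LFD MTX50 vs LFD, among them the fatty acid carrier Fabp1 (−0.90), and 3 rose and 1 fell in HFD MTX50 vs HFD. The median differences were −0.11, −0.25 and 0.12. Of 28 other PPAR-alpha targets, 6 rose and none fell with the high fat diet, where 3522 of all 19597 genes rose. In LFD MTX50 vs LFD 8 fell and none rose, where 10.5% of all genes fell. In HFD MTX50 vs HFD 5 fell and none rose, where 6.13% of all genes fell. Vnn1 fell by 1.91 in LFD MTX50 vs LFD and G0s2, the inhibitor of triglyceride lipase, fell by 1.93 in HFD MTX50 vs HFD. The median difference of these 28 genes was 0.30, −0.25 and −0.31, beside 0.08, 0.10 and −0.04 for all genes.

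Cyp4a12a is usually counted among the male-biased liver genes. Of 17 others tested, 10 fell, none rose and 7 did not pass in LFD MTX50 vs LFD, where 10.5% of all genes fell, with a median of −1.13 and differences of −6.50 for Elovl3 and −4.64 for Hsd3b5. In HFD vs LFD 2 fell, Gstp1 (−1.27) and Susd4 (−0.995). In HFD MTX50 vs HFD, where Cyp4a12a and Cyp4a12b both fell, none of the 17 passed, with a median of −0.26. Single genes of the 17 ran from −1.83 (Elovl3, adjusted p = 0.0603, limma) to 0.36 (Bcl6, adjusted p = 0.783, limma), beside −1.74 for Cyp4a12a. Of 20 female-biased genes, 6 rose and none fell in HFD vs LFD, where 3522 of all 19597 genes rose. In LFD MTX50 vs LFD 8 rose and none fell, where 3450 of all genes rose, and 1 fell in HFD MTX50 vs HFD. Cux2 rose by 6.15 on the log2 scale in LFD MTX50 vs LFD, and by 3.601 with normexp. Its mean level was −7.32 in LFD mice and −1.17 in LFD MTX50 mice, so the size of the rise depends on dim signals in LFD mice. Of the 11 genes of growth hormone and androgen signalling, 1 rose and 1 fell in HFD vs LFD, 4 rose and 2 fell in LFD MTX50 vs LFD, with a median of 0.01, and 1 rose in HFD MTX50 vs HFD. Socs2, a feedback inhibitor of growth hormone signalling, rose by 2.68 in LFD MTX50 vs LFD and by 0.94 in HFD MTX50 vs HFD. The second call, at adjusted p = 0.0465 (limma), was lost in 10 of 16 other settings and in 14 of 18 fits with 1 array left out, with an adjusted p of up to 0.176 without HFD mouse 3. In LFD MTX50 vs LFD Cish (2.33), Esr1 (0.96) and Igfals (0.51) also rose. The signal transducer Stat5a (−0.99) and the growth hormone receptor Ghr (−0.53) fell there. The call of Cish was lost in 5 of 14 other settings and in 7 of 18 fits with 1 array left out. Nudt7, Aldh3a2, Abcd2 and Acot3 each stand in 2 of the lists.

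Other calls of named genes also rested on the processing. In LFD MTX50 vs LFD those of Nudt7, Acaa1b, Aldh1a1, Cyb5b, Elovl3 and Cux2 held in every other setting that tested them and with any array left out. Cux2 was tested in 13 other settings and not in the one limited to probes above background on all arrays. The calls of Fabp1 (4 settings), Cyp4x1 (3), Cyp4f18 and Vnn1 (2 each) and Acsl5 and Hsd3b5 (1 each) were lost in some. With normexp the calls of Aldh3a2, Adh7, Acaa1b, G0s2 and Socs2 in HFD MTX50 vs HFD and of Aldh3a2, Acsl4, Gstp1 and Susd4 in HFD vs LFD all ended. With 1 array left out, the call was lost in 8 of 18 fits for Acsl4, in 4 for Acaa1b, in 2 each for G0s2, Adh7 and Susd4 and in 1 for Gstp1 in these comparisons, and in 1 for Cyp4x1 in LFD MTX50 vs LFD.

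**Figure D5:**
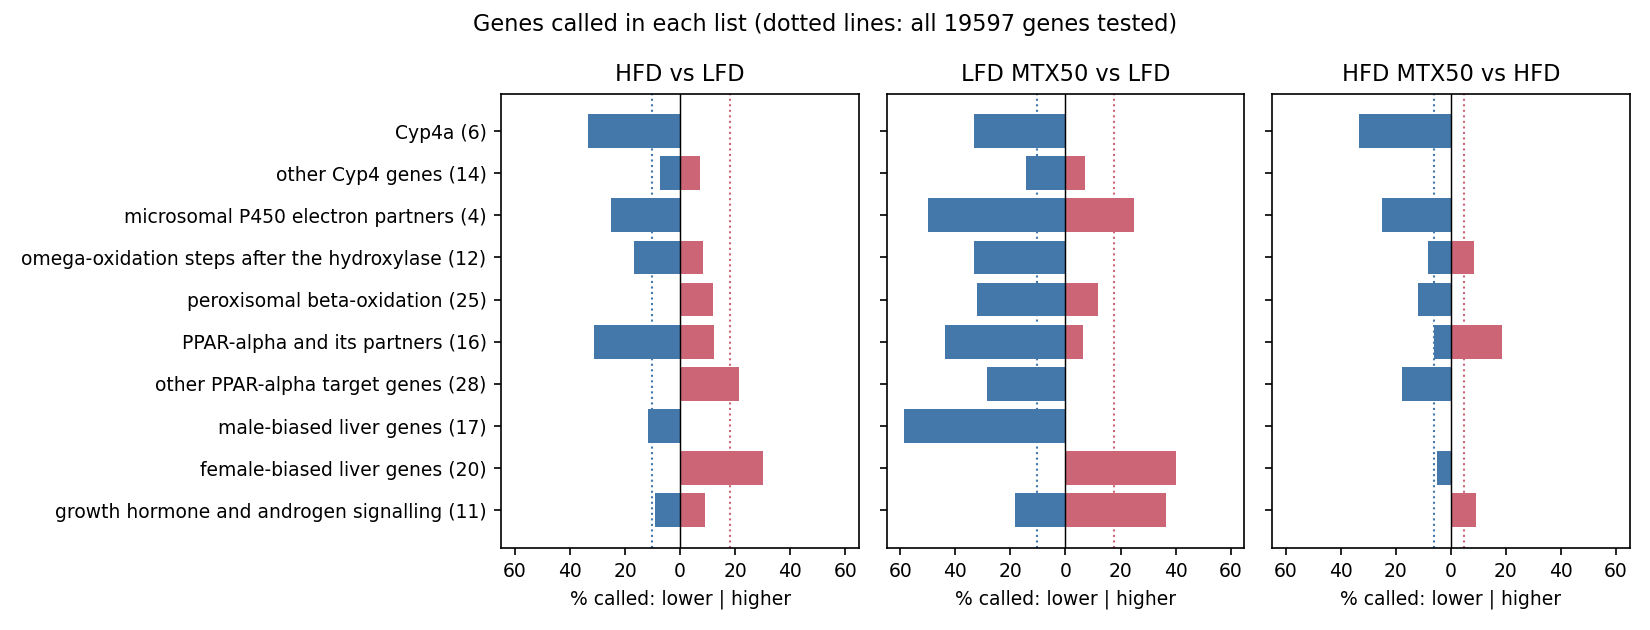
Share of each list (number of genes in brackets) called lower, to the left, or higher, to the right, in 3 comparisons at an adjusted p below 0.05, with dotted lines for all 19597 genes. The male-biased genes reach furthest to the left in LFD MTX50 vs LFD (10 of 17), and in HFD MTX50 vs HFD the Cyp4a genes do (2 of 6). Those 2 are the paralogs Cyp4a12a and Cyp4a12b, which cannot be counted as separate observations. The place of the family among the lists is therefore not read as a result.

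In whole liver, fewer cells of a type and less RNA per cell cannot be told apart. The 7 hepatocyte markers summed to 804 to 973 times the 75th percentile signal in LFD mice and to 909 to 1048 times it in LFD MTX50 mice, with 718 to 853 for HFD and 635 to 972 for HFD MTX50, so that treated and untreated mice overlapped on both diets. Of 11 marker lists, 1 did not overlap between LFD MTX50 and LFD, the 7 neutrophil genes, at 51.2 to 58.4 against 69.1 to 82.6. This sum followed its brightest gene, Elane, which fell by 0.56, while Ngp rose by 2.49, the other 5 did not pass and the median difference of the 7 was 1.09. Between HFD MTX50 and HFD there were 2: the 8 macrophage genes, at 41.8 to 53.8 against 22.99 to 40.6, and the 5 adipocyte genes, at 0.627 to 1.59 against 4.16 to 6.68. Tested singly, none of the macrophage genes passed, with a median difference of 0.54. Of the adipocyte genes 1 rose and 1 fell, with a median of −0.41. Between HFD and LFD there were 6, with the adipocyte genes at 4.16 to 6.68 against 0.362 to 0.526. The lymphocyte, kidney and pancreas sums were higher and the neutrophil and erythroid sums lower. Tested singly, 3 adipocyte, 3 kidney, 2 lymphocyte and 1 pancreas gene rose, and none of the 4 erythroid genes passed. Again Elane alone of the neutrophil genes fell, and their median difference was 0.25. In LFD MTX50 vs LFD, 3 of the 5 adipocyte and 2 of the 7 lymphocyte genes rose singly, though their sums overlapped. There 3450 of all 19597 genes rose, and no other marker list had more than 1 gene called in a direction. All listed markers but 1 erythroid gene were well above background on at least 4 arrays, so a marker may be near background in some groups. The part of the markers in the Cyp4a results was not tested.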

How the data were processed

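The values are spot intensities that the authors read from one-colour arrays with Agilent Feature Extraction 10.7.3.1; per the file headers, background was subtracted and trends were removed within each array, and arrays were not scaled to each other. RNA extraction and labelling are described differently in the labels (Trizol with RNeasy, a low input linear kit) and in the methods (RNeasy, Quick Amp). The 18 arrays carry 43020 spots that are not controls. Here outlier spots were left out (124 to 294 per array), log2 signals were reduced by the array's 75th percentile, and spots of a probe were averaged. Probes with most of their spots well above background on at least 4 arrays were kept (35735). Transcripts were named through RefSeq (GRCm38.p6), which named 28025 probes. limma 3.58.1 in R 4.3.3 fitted 4 groups, and p-values were adjusted by Benjamini-Hochberg across the kept probes; calls needed an adjusted p below 0.05. The number of arrays limits the precision.

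All 6 members were named, and from each companion list at most the 2 largest called in a comparison. Members, lists and this rule were chosen with earlier results of these data known. The count of 2 and the Cyp4a14 differences within an array were chosen after their values were seen. So was the naming of Stat5a, Ghr, Esr1, Igfals, Bcl6, Cyb5a, Elane, Ngp and, in 1 comparison each, Elovl3, Cyb5r3 and Adh7. The alternatives were other background correction, scaling, filters, variance model, samples, test, slide and replicate blocks, probe summary, the deposited value table (rounded background-subtracted intensity) and leaving out each array. Normexp was run on median spot signals, since the files used here hold no mean signal column. The model was checked on simulated data.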

Additional observations from a re-analysis of the deposited data

Results flagged for a closer look

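The methotrexate effect on HFD minus that on LFD was 2.40 for Cyp4a12a and 2.26 for Cyp4a12b on the log2 scale, and the difference between the diets passed the test in the model (limma, adjusted p = 0.0103 and 0.00586).

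Among 52 sets of 4 or 5 values examined, 3 held a mouse far from the others of its group, where chance gives about 1 in 20. One Cyp4a31 probe, not the brightest, read 1.06 in HFD mouse 3, with the next HFD mouse at 0.70. Cyp4a14 minus Cyp4a10 was −0.50 in HFD mouse 1, with the next at −0.12, and Cyp4a14 minus Cyp4a32 was 1.83 in the same mouse, with the next at 2.10. HFD MTX50 mouse 5, low on the Cyp4a10, Cyp4a14, Cyp4a31 and Cyp4a32 probes, was not among them.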

How the results depend on the processing

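The count of Cyp4a genes called in LFD MTX50 vs LFD was 2 in all 14 other settings and 2 to 3 with 1 array left out. With normexp background correction 0 Cyp4a genes were called for the diet, for HFD MTX50 vs HFD and for the difference between the treatment effects; the median of all genes then lay at 0.375, 0.467, 0.391 and −0.116 in the 4 comparisons, and apart from LFD MTX50 vs LFD, with 116 genes higher and 223 lower, at most 2 genes were called in all. Cyp4a12a and Cyp4a12b kept their direction there, with unadjusted p of at most 0.00141. Quantile normalization and no filter on dim probes each left 1 call in HFD vs LFD. The slide as a random block left 0 in HFD vs LFD and 1 for the difference between treatment effects. In HFD MTX50 vs HFD, only the 2 groups compared, the methods' t-test after adjustment, the slide as a fixed block and the comparison within the shared slide each left 0; at the methods' own threshold the t-test called 2, 2 and 1 of the 6 members in the first 3 comparisons. The replicate block left each count at 2; correlations of same-numbered mice ran from −0.343 to 0.261, so the numbers do not pair the mice. With 1 array left out the counts were 1 to 2 for HFD vs LFD, 0 to 3 for HFD MTX50 vs HFD and 2 to 5 for the difference between the treatment effects, the 5 without HFD MTX50 mouse 5. The cause of these changes was not tested.

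The sign turned only for differences that passed no test. In HFD vs LFD, quantile normalization gave Cyp4a10 0.17, Cyp4a31 0.19 and Cyp4a32 0.059; the value table gave Cyp4a31 0.014 and the mean of all probes 0.012; normexp gave Ppara −0.25 and median scaling −0.059. In HFD MTX50 vs HFD, Ppara was −0.045 with normexp, −0.065 with quantile normalization and −0.16 with the mean of all probes. With 1 array left out, HFD vs LFD ran from −0.26 to 0.002 for Cyp4a10, from −0.11 to 0.10 for Cyp4a31, from −0.19 to 0.081 for Cyp4a32 and from −0.051 to 0.10 for Ppara; HFD MTX50 vs HFD ran from −0.087 to 0.66 for Cyp4a31, from −0.18 to 0.90 for Cyp4a32 and from −0.023 to 0.18 for Ppara; and the difference between the treatment effects ran from −0.10 to 0.95 for Cyp4a14. The share of called genes that were higher was 63.4% in HFD vs LFD, 62.7% in LFD MTX50 vs LFD and 32.4% for the difference, and with quantile normalization 47.4%, 45.3% and 45.3%.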
